A study of Mus musculus with 36 samples.

Results

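The genes described here are 10 mouse genes of lipid droplet coating and of triglyceride breakdown: Pnpla2, Pnpla3, Mgll, G0s2, Plin2, Plin4, Plin5, Cidea, Cideb and Cidec. They were chosen by name, and every probe that the scanner files assign to one of these gene names was used, whatever its values. This gave 10 of the 37074 gene names on the array and 15 of its 56605 probes. All 15 probes passed the filter on dim probes (a signal well above background in 6 or more of the 36 mice) and were among the 34678 probes, of 22916 gene names, that were tested. Where a gene had 2 probes, the one with the higher mean over the 36 arrays stands for the gene.

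Hepatocytes keep triglyceride in droplets that are bounded by a phospholipid monolayer and coated with proteins. Stored triglyceride is broken down one fatty acid at a time: the adipose triglyceride lipase Pnpla2 makes the first cut, Mgll releases the last fatty acid from monoglyceride, and G0s2 is a small protein that binds and inhibits Pnpla2. The perilipins Plin2, Plin4 and Plin5 coat the droplet and limit or guide access of lipases, and the CIDE proteins Cidea, Cideb and Cidec promote lipid transfer between droplets, with Cideb also known for the lipid loading of secreted lipoproteins. Insulin is known to restrain lipolysis in fat and to raise lipid-storing gene programmes in liver.

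Total liver RNA of 36 male mice of 11 weeks on a C57BL/6J cross was measured, 1 array per mouse and 6 mice in each of 6 groups. Knockout mice (IRLKO in the labels) carried a floxed exon 4 of Insr, the insulin receptor gene, and a tamoxifen-inducible Cre driven by the transthyretin promoter in liver. Control mice (IRLWT) were those the design text lists as the receptor-intact line, and the labels state neither whether they carried Cre nor when tamoxifen was given. All mice ate chow freely and were sampled at Zeitgeber time 8, 12 or 16 (ZT8, ZT12, ZT16; hours after lights-on, with lights off at ZT12). The promoter directs Cre to cells that express transthyretin, in liver the hepatocytes.

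The levels below are log2 intensities relative to the 75th percentile of the same array, so that 0 is that percentile, and differences are log2 differences from a limma fit over all 36 arrays with the wash batch as a term. A gene is called where the Benjamini-Hochberg adjusted p, taken over all 34678 probes tested, is below 0.05. By its brighter probe, Insr was lower in all 6 knockouts than in every control at each time, with log2 differences of -1.77, -1.88 and -1.65. By the second, dimmer Insr probe the groups overlapped at ZT16, from -4.60 to -3.68 in controls and from -4.97 to -3.53 in knockouts. The 6 hepatocyte markers (Alb, Apoa1, Apob, Ttr, Cps1, Hnf4a) were well above background on every array. One library, knockout ZT8 replicate 3, stood apart from its group: its Insr level was that of a knockout (-3.54), but Mgll, Plin4 and Plin5 lay far below the other 5 ZT8 knockouts. Its summed neutrophil, macrophage and stellate cell markers were the highest of its group and its summed hepatocyte markers the lowest, and their part in its values was not tested. For the probe that stands for each gene, every ZT8 genotype call that changed without this library is given with and without it. Second probes, counts of groups without overlap, and the pathway and marker lists are given with it only. The library was singled out by the members' own levels, so results without it are no independent support.

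The promoter windows of 4 members are shown because these are the lipases and the lipase inhibitor: Pnpla2 was higher in knockouts, and Pnpla3, G0s2 and Mgll were lower. RefSeq (GRCm38.p6) gave a window for 9 of the 10 members. Each line holds the 250 bases before the gene's start, on the gene's strand, with every match to a searched motif in capitals.
Pnpla2, chr7:141454938-141455187, plus strand: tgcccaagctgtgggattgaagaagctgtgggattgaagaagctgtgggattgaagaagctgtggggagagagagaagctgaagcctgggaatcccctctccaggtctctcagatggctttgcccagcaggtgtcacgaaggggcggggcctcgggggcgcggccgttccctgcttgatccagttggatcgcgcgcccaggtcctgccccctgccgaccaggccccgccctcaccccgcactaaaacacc
Pnpla3, chr15:84167566-84167815, plus strand: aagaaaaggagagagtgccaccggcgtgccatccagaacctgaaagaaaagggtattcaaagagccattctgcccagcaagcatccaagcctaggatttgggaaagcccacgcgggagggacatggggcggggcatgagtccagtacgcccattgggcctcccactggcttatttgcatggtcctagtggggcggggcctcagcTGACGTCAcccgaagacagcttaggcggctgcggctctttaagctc
G0s2, chr1:193273189-193273438, minus strand: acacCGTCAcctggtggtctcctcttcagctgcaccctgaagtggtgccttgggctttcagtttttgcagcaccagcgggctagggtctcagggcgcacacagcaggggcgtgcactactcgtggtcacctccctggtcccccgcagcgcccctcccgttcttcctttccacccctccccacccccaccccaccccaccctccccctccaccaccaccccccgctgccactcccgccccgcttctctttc
Mgll, chr6:88724162-88724411, plus strand: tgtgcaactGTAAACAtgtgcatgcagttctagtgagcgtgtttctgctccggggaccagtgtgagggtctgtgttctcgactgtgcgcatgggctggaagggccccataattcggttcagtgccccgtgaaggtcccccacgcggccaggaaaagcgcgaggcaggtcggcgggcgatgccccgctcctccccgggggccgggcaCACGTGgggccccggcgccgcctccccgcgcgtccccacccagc

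The motifs searched, on both strands of windows of 300 bases, were the FoxO site TGTTTAC, the E-box CACGTG, the sterol response element TCACNCCAC, the nuclear receptor hexamer AGGTCA and the cAMP response element core TGACG. The Mgll window held a FoxO site at -241 and an E-box at -44, counted from the gene's start. In the Pnpla3 window, matches to TGACG on opposite strands at -46 and -43 overlapped, and the G0s2 window had a single match to this motif at -246. No searched motif was found in the Pnpla2 window. Among the members not shown, Plin2 had an E-box at -4 and a hexamer AGGTCA at -218, and Plin5 had AGGTCA once in each of its 2 windows, at -170 and 13. A second Mgll window, from another start, held TGACG at 19. No searched motif was found in the windows of Plin4, Cideb and Cidec. Over all 32851 RefSeq windows, 3.65% held the FoxO site, 7.15% the E-box, 1.24% the sterol response element, 16.3% the hexamer AGGTCA and 20.8% TGACG. These matches describe the letters of the windows and no binding was measured.

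Knockout and control livers were compared at each time to see how the droplet and lipolysis genes depended on the hepatocyte insulin receptor. Pnpla2 was higher in knockouts at all 3 times. Pnpla3, Mgll, G0s2 and Cideb were lower at all 3, while Plin2 and Cidec were called lower at ZT12, Plin4 at ZT16 and Plin5 at both. Cidea was not called at any time. At ZT8, 5 of the 10 members were called, 1 higher and 4 lower, where 33.7% of all probes tested were called, 16.2% higher and 17.5% lower. At ZT12, 8 were called, 1 higher and 7 lower (39.3% of all probes, 18.4% higher and 20.8% lower), and at ZT16, 7 were called, 1 higher and 6 lower (37.9% of all probes, 18.7% higher and 19.1% lower). The groups of 6 did not overlap for 2 members at ZT8, 6 at ZT12 and 7 at ZT16, against 14.2%, 19.7% and 17.6% of all probes. The median log2 difference over the members was -0.01, -0.70 and -0.78 at the 3 times, and over all probes it was 0.01, 0.00 and 0.01.

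**Figure D1:**
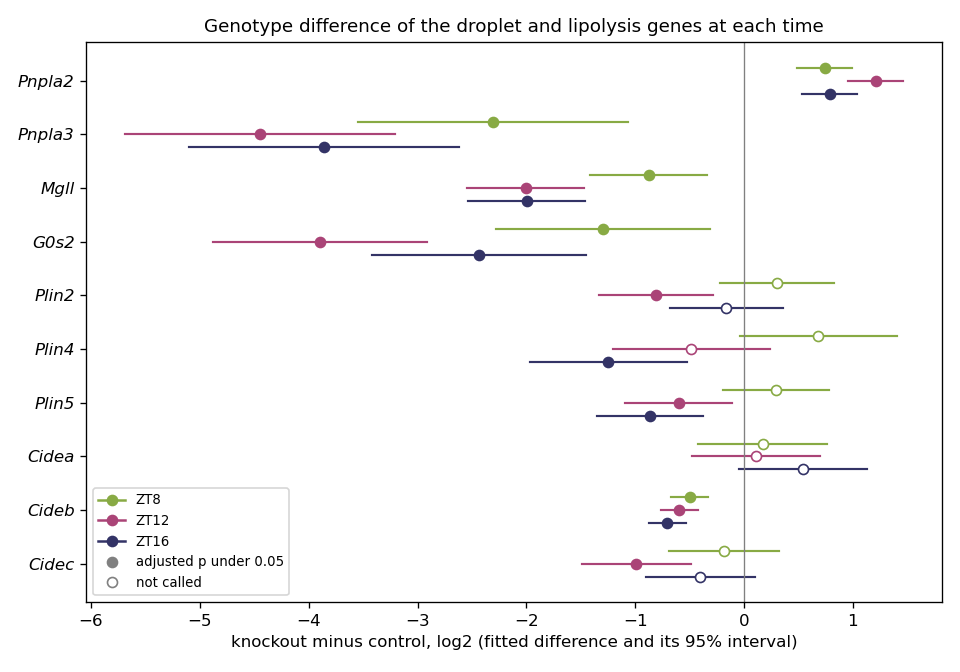
Fitted log2 difference, knockout minus control, of each member's brightest probe at ZT8, ZT12 and ZT16 (x axis, log2; lines are 95% intervals; filled points have an adjusted p under 0.05, open points do not; 6 mice per group). Pnpla2 lies to the right of 0 at each time (0.74, 1.21 and 0.78), and Pnpla3, Mgll, G0s2 and Cideb lie to the left at each time, with Pnpla3 at -4.44 at ZT12 farthest.

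Pnpla2, the lipase that starts triglyceride breakdown, was read by 1 probe on chromosome 7 (mm9, 148645928 to 148645987, plus strand). At ZT8 Pnpla2 levels ran from 3.63 to 3.81 (median 3.70) in controls and from 3.95 to 4.78 (median 4.46) in knockouts. At ZT12 Pnpla2 ran from 3.21 to 3.47 (median 3.40) in controls and from 4.13 to 4.89 (median 4.65) in knockouts. Pnpla2 at ZT16 ran from 2.93 to 3.57 (median 3.09) in controls and from 3.79 to 4.08 (median 3.99) in knockouts. The 6 knockouts lay above all 6 controls at each time. Fitted log2 differences, in the order of the times, were 0.74, 1.21 and 0.78 (SE 0.12 each; limma adjusted p = 2.3e-05, 4.78e-09 and 8.02e-06), that is 1.67-fold, 2.31-fold and 1.72-fold higher. Within each of the 3 wash batches the difference was above 0 at every time, from 0.60 to 1.38.

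Pnpla3, a close relative of Pnpla2 that acts on triglyceride and retinyl esters and is known as an insulin- and carbohydrate-responsive gene, had the largest differences of the members by its brighter probe. That probe lies on chromosome 15 (mm9, 84019823 to 84019882, plus strand). At ZT8 Pnpla3 levels ran from -3.14 to -0.41 (median -1.68) in controls and from -5.06 to -2.78 (median -3.92) in knockouts. At ZT12 Pnpla3 ran from 0.35 to 3.15 (median 1.45) in controls and from -4.26 to -0.75 (median -3.44) in knockouts. Pnpla3 at ZT16 ran from -2.32 to 2.51 (median 0.81) in controls and from -4.17 to -2.63 (median -3.26) in knockouts. Knockouts and controls did not overlap at ZT12 and ZT16, and at ZT8 they overlapped. Controls spread widely at ZT16, with an SD of 1.85 (n = 6), and the lowest ZT16 control lay just above the highest ZT16 knockout. In log2 units the fitted differences, in the order of the times, were -2.30, -4.44 and -3.86 (SE 0.61 each; limma adjusted p = 0.00377, 8.39e-07 and 8.29e-06), or 4.94-fold, 21.8-fold and 14.5-fold lower. A normexp background correction shrank these differences to -1.26, -3.41 and -2.79, and at ZT12 G0s2 then had the larger one (-3.51). The second Pnpla3 probe (84016440 to 84016499) gave -2.59, -2.35 and -1.90, with no overlap at any time, and it stood well above background in every control, but in 3, 4 and 3 of the 6 knockouts at ZT8, ZT12 and ZT16. By that probe the ZT12 and ZT16 differences were smaller than those of G0s2.

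Mgll, the monoglyceride lipase that also breaks down the endocannabinoid 2-arachidonoylglycerol, was read by 2 probes on chromosome 6 (mm9, plus strand), the brighter at 88778292 to 88778351. At ZT8 Mgll levels ran from 4.40 to 4.70 (median 4.63) in controls and from 1.82 to 4.51 (median 4.0) in knockouts. At ZT12 Mgll ran from 4.85 to 5.17 (median 4.98) in controls and from 2.14 to 3.42 (median 3.08) in knockouts. Mgll at ZT16 ran from 5.0 to 5.30 (median 5.06) in controls and from 2.43 to 3.50 (median 3.11) in knockouts. All knockouts lay below all controls at ZT12 and ZT16. At ZT8 the groups overlapped, and replicate 3 set the lowest knockout value, with the other 5 between 3.91 and 4.51. The 3 fitted log2 differences of Mgll, in the order of the times, were -0.88, -2.0 and -2.0 (SE 0.26 each; limma adjusted p = 0.0104, 4.44e-07 and 4.94e-07), which left 54.5%, 24.9% and 25.1% of the control signal. Without replicate 3 the ZT8 difference was -0.49 (adjusted p = 0.0272). The ZT8 call was lost with only the groups compared in the fit (-0.89, limma adjusted p = 0.117).

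The second Mgll probe is shown because it reads another stretch of the transcript than the brighter one, starting at base 666 of it and not at base 3928 (per the files), and the G0s2 probe because it is the only one for that gene and spans an ATG. The first line is the Mgll probe (mm9, chr6:88714636-88714695, plus strand), and the second is the G0s2 probe (starting at base 212 of its transcript; mm9, chr1:195098925-195098984, minus strand), in which capitals mark an ATG with no stop codon in its frame up to the end of the probe.
Mgll probe: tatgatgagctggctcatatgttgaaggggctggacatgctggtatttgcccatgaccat
G0s2 probe: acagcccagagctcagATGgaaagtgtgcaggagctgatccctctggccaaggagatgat
The Mgll probe gave log2 differences of -1.22, -2.38 and -2.38 at ZT8, ZT12 and ZT16, each called and each without overlap between groups. The exon or untranslated region that a probe reads was not determined, since no annotation of build mm9 was used.

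G0s2, the inhibitor of Pnpla2, moved in the direction opposite to Pnpla2. At ZT8 G0s2 levels ran from 0.37 to 2.84 (median 1.89) in controls and from -1.11 to 1.65 (median 0.86) in knockouts. At ZT12 G0s2 ran from 1.68 to 3.24 (median 2.82) in controls and from -2.21 to -0.47 (median -1.22) in knockouts. G0s2 at ZT16 ran from 2.02 to 4.20 (median 3.68) in controls and from 0.29 to 1.82 (median 1.02) in knockouts. At ZT8 the groups overlapped, and at ZT12 and ZT16 every knockout lay below every control. For G0s2 the log2 differences, in the order of the times, were -1.29, -3.90 and -2.43 (SE 0.48 each; limma adjusted p = 0.0377, 1.56e-07 and 0.000185), or 2.45-fold, 14.9-fold and 5.4-fold lower. The ZT8 call was lost in 8 of 48 alternatives, among them leaving out knockout ZT8 replicate 3 (-0.95, adjusted p = 0.128) or replicate 6 and leaving out control ZT8 replicate 2, 5 or 6. At ZT8 its differences within the wash batches ran from -2.05 to -0.06.

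**Figure D2:**
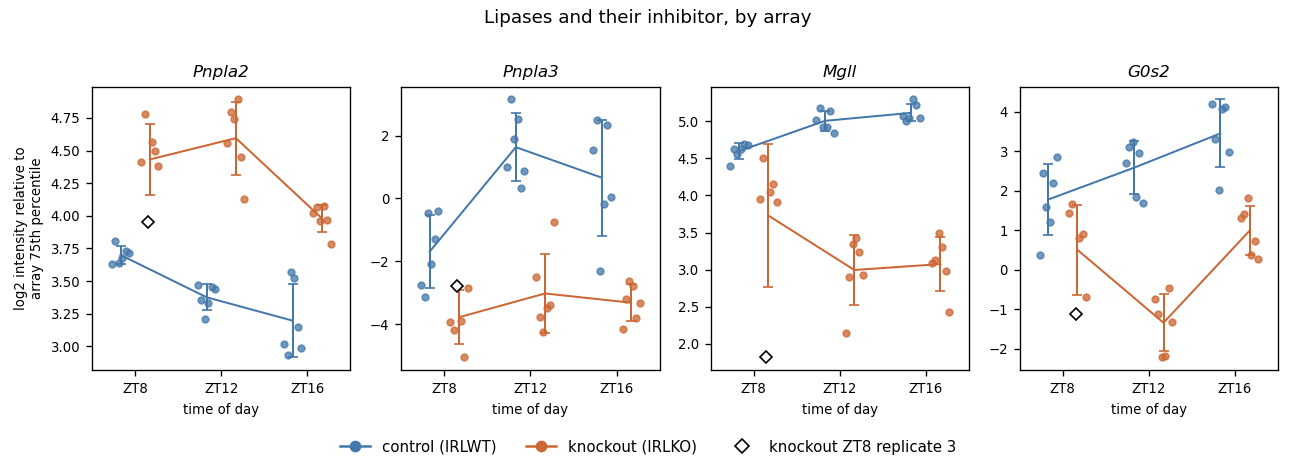
Log2 level relative to the array's 75th percentile (y axis) of the 3 lipases Pnpla2, Pnpla3 and Mgll and of the inhibitor G0s2 at ZT8, ZT12 and ZT16 (x axis), 1 point per mouse, with group means joined by lines and bars of ± 1 SD (n = 6). Knockout points lie above all control points for Pnpla2 at each time and below them for Mgll and G0s2 at ZT12 and ZT16, and the open diamond is knockout ZT8 replicate 3, at 1.82 for Mgll.

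Of the perilipins, Plin2, the main droplet coat protein of liver, had its knockout deficit at ZT12 alone among the 3 times. Its brighter probe lies on chromosome 4 (mm9, 86302847 to 86302906, minus strand). At ZT8 Plin2 levels ran from 5.18 to 6.18 (median 5.80) in controls and from 4.80 to 7.40 (median 6.11) in knockouts. At ZT12 Plin2 ran from 4.97 to 5.84 (median 5.22) in controls and from 4.25 to 4.84 (median 4.40) in knockouts. Plin2 at ZT16 ran from 5.02 to 5.40 (median 5.17) in controls and from 4.71 to 5.28 (median 5.08) in knockouts. Only at ZT12 did the groups not overlap. Plin2 differed by a log2 value of -0.81 at ZT12 (SE 0.26, limma adjusted p = 0.0124), against 0.30 and -0.16 at ZT8 and ZT16 (adjusted p = 0.383 and 0.656). The second Plin2 probe disagreed at ZT16: it gave -0.16, -1.06 and -0.72, with no overlap at ZT12 and ZT16 and an adjusted p of 0.0065 at ZT16 by limma. Without knockout ZT8 replicate 3, the ZT8 difference was 0.58 (limma adjusted p = 0.0413), and without replicate 2, the highest knockout at 7.40, it was 0.004 (adjusted p = 0.992), so that single libraries decided this value.

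Plin4, a perilipin of small droplets that is abundant in fat cells, was read by 1 probe on chromosome 17 (mm9, 56240055 to 56240114, minus strand). At ZT8 Plin4 levels ran from -1.39 to -0.40 (median -0.93) in controls and from -2.24 to 0.78 (median -0.06) in knockouts. At ZT12 Plin4 ran from -1.36 to 0.41 (median -0.14) in controls and from -1.36 to 0.02 (median -0.83) in knockouts. Plin4 at ZT16 ran from 0.16 to 1.05 (median 0.77) in controls and from -1.02 to 0.11 (median -0.65) in knockouts. The groups overlapped at ZT8 and ZT12, and at ZT16 all knockouts lay below all controls. As a log2 difference this was -1.25 at ZT16 (SE 0.35, limma adjusted p = 0.00595), 0.68 at ZT8 (adjusted p = 0.14) and -0.49 at ZT12 (adjusted p = 0.291). Without knockout ZT8 replicate 3 the ZT8 difference was 1.11 (adjusted p = 0.00354), and the other 5 knockouts, between -0.23 and 0.78, lay above all 6 controls. Within wash batches at ZT12 the difference ran from -1.39 to 0.24, with 1 batch above 0 and the other two below.

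Plin5, which ties droplets to mitochondria and is abundant in oxidative tissues, had 2 probes close together on chromosome 17 (mm9, minus strand), the brighter at 56251025 to 56251084. At ZT8 Plin5 levels ran from 3.51 to 4.06 (median 3.85) in controls and from 2.55 to 4.89 (median 4.34) in knockouts. At ZT12 Plin5 ran from 4.32 to 5.09 (median 4.54) in controls and from 3.29 to 4.46 (median 4.07) in knockouts. Plin5 at ZT16 ran from 5.16 to 5.64 (median 5.43) in controls and from 4.29 to 4.80 (median 4.60) in knockouts. Knockouts lay below all controls at ZT16, and the groups overlapped at ZT8 and ZT12. Knockout minus control, Plin5 was -0.86 at ZT16 (SE 0.24, limma adjusted p = 0.00506) and -0.60 at ZT12 (adjusted p = 0.0456), where the call was lost in 16 of 48 alternatives. At ZT8 it was 0.29 (adjusted p = 0.368), and without knockout ZT8 replicate 3 it was 0.63 (adjusted p = 0.00319), with the other 5 knockouts above all controls. The second probe gave 0.50, -0.35 and -0.70 and was called at ZT16 alone (adjusted p = 0.0224).

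Without knockout ZT8 replicate 3, therefore, 7 of the 10 members were called at ZT8, 4 higher (Pnpla2, Plin2, Plin4 and Plin5) and 3 lower (Pnpla3, Mgll and Cideb), where 34.1% of all probes were called. Mgll, Plin4 and Plin5 were the genes by which this library was singled out.

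Among the CIDE genes, Cideb, the family member of hepatocytes, was lower in knockouts at all 3 times with a small spread. Its brighter probe lies on chromosome 14 (mm9, 56372942 to 56373001, minus strand). At ZT8 Cideb levels ran from 6.38 to 6.61 (median 6.57) in controls and from 5.84 to 6.28 (median 6.06) in knockouts. At ZT12 Cideb ran from 6.0 to 6.67 (median 6.51) in controls and from 5.77 to 5.89 (median 5.82) in knockouts. Cideb at ZT16 ran from 6.29 to 6.64 (median 6.43) in controls and from 5.68 to 5.89 (median 5.76) in knockouts. No knockout reached the lowest control of its time. The log2 difference was -0.50, -0.59 and -0.70 at ZT8, ZT12 and ZT16 (SE 0.08 at each, limma adjusted p = 2.85e-05, 1.6e-06 and 9.22e-08), so that 70.8%, 66.2% and 61.4% of the control signal remained. The second Cideb probe gave -0.70, -0.61 and -0.94, again without overlap at any time.

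Cidec, which drives droplet enlargement and is abundant in fat cells and fatty liver, was called at ZT12 alone. At ZT12 Cidec levels ran from -1.81 to -0.80 (median -1.22) in controls and from -2.72 to -1.62 (median -2.30) in knockouts, ranges that overlapped. Its log2 difference there was -0.99 (SE 0.25, limma adjusted p = 0.00194), against -0.18 and -0.40 at ZT8 and ZT16 (adjusted p = 0.609 and 0.206). Cidea, best known from brown fat, was dim: its group medians lay between -4.20 and -3.39, and it was well above background on 35 of 36 arrays. Its log2 differences were 0.17, 0.11 and 0.54 (limma adjusted p = 0.694, 0.795 and 0.14), with 95% intervals of -0.42 to 0.76, -0.48 to 0.70 and -0.05 to 1.13. Its highest value, -2.14, was that of knockout ZT8 replicate 3, and without this library the ZT16 difference was 0.58 (SE 0.23, against 0.29 with it; adjusted p = 0.0434).

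**Figure D3:**
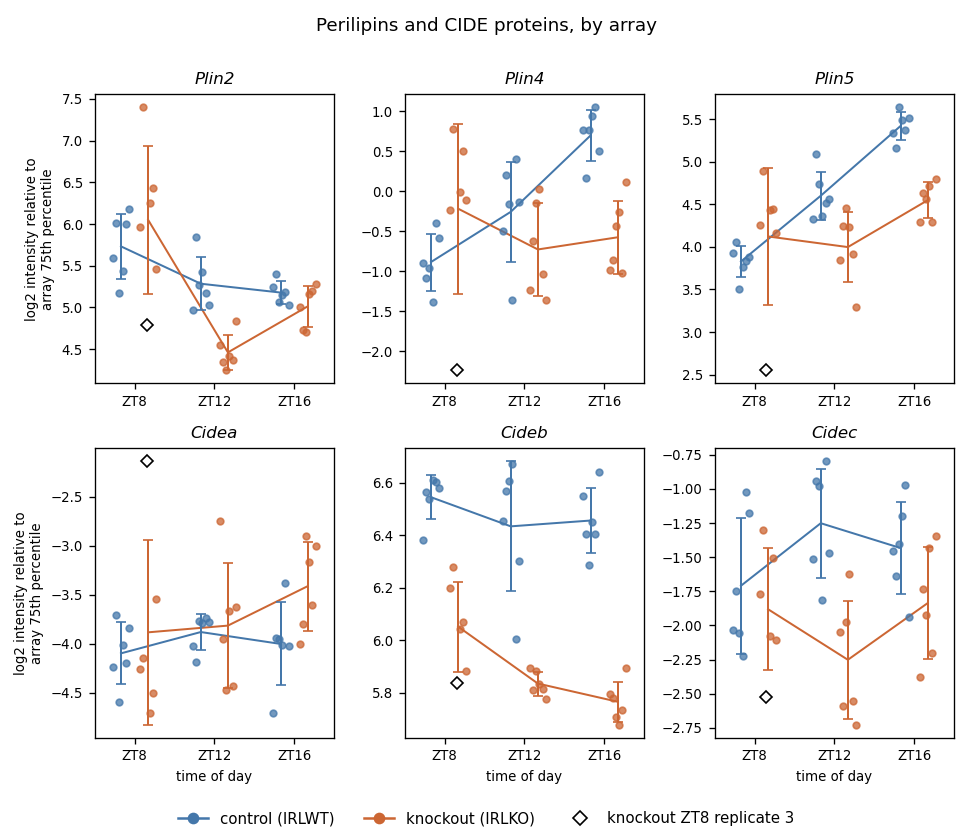
Log2 level relative to the array's 75th percentile (y axis) of 3 perilipins and 3 CIDE genes at ZT8, ZT12 and ZT16 (x axis), 1 point per mouse, with group means joined by lines and bars of ± 1 SD (n = 6). Cideb knockouts lie below all controls at each time, the ZT16 controls of Plin4 and Plin5 lie above all their ZT8 controls, and the open diamond is knockout ZT8 replicate 3, at -2.24 for Plin4 and 2.55 for Plin5.

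The change with time was compared next within each genotype. In controls, 5 members were called between ZT8 and ZT16 (25.5% of all probes): Plin5 rose by 1.58, Plin4 by 1.56, G0s2 by 1.65 and Pnpla3 by 2.23, and Pnpla2 fell by 0.50 on the log2 scale (limma adjusted p = 7.53e-06, 0.00125, 0.0109, 0.00631 and 0.0025). The ZT16 and ZT8 controls did not overlap for 4 members, against 14.5% of all probes: Plin4, Plin5 and Mgll (not called) lay higher at ZT16, and Pnpla2 lay lower. The groups share 1 estimate of spread, to which knockout ZT8 replicate 3 adds. Without that library Mgll was called in controls (0.51, limma adjusted p = 0.0186), as 1 of 6 members, with 27.3% of all probes called. Between ZT8 and ZT12, before lights-off, 2 members were called in controls (13.6% of all probes): Pnpla3 rose by 3.33, which is 10-fold (adjusted p = 0.000248), and Plin5 by 0.77 (adjusted p = 0.0269). Both Pnpla3 rises are those of its brighter probe. The call of its rise from ZT8 to ZT16 was lost with only the groups compared in the fit (limma adjusted p = 0.0819). The second Pnpla3 probe showed no such rise, with control means of -2.80, -2.51 and -2.74 at ZT8, ZT12 and ZT16. Between ZT12 and ZT16, 0 members were called in controls by limma (2.98% of all probes). There 2 members had an unadjusted p below 0.05, a threshold at which the share of all probes was not taken. Without knockout ZT8 replicate 3, 3 members were called in controls between ZT8 and ZT12 (15.2% of all probes) and 2 between ZT12 and ZT16 (3.75%).

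Knockout livers were compared in the same way. Between ZT8 and ZT12, 2 members were called (12.3% of all probes): Plin2 fell by 1.56 and G0s2 fell by 1.80 on the log2 scale (limma adjusted p = 0.000134 and 0.014). The G0s2 call was lost without knockout ZT8 replicate 2 (-1.52, adjusted p = 0.055), and both were lost with only the groups compared in the fit (adjusted p = 0.0644 for Plin2 and 0.109 for G0s2). Between ZT12 and ZT16, 2 were called (11.3%): G0s2 rose by 2.30, with no overlap, and Pnpla2 fell by 0.60 (adjusted p = 0.00157 and 0.00118). Between ZT8 and ZT16, 3 were called (28.5%): Plin2 fell by 1.02, Pnpla2 fell by 0.46 and Cideb fell by 0.28 (adjusted p = 0.00262, 0.0048 and 0.0115). Of these, the Plin2 and Cideb calls were lost with only the groups compared in the fit (limma adjusted p = 0.0671 and 0.0725). Without knockout ZT8 replicate 3, 6 members were called lower at ZT12 than at ZT8 in knockouts, with 17.8% of all probes called: Plin2, G0s2, Mgll, Plin4, Plin5 and Cideb, at -1.85, -2.15, -1.12, -0.98, -0.47 and -0.27. From ZT8 to ZT16, 6 were then called, with 32.2% of all probes, and they included Mgll (-1.04) and Plin4 (-0.80) among the lower and Cidea (0.85) as the one higher.

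Whether the genotype effect itself differed among the times was tested in the same fit. The moderated F test called 2 members, Plin4 (limma adjusted p = 0.0373) and G0s2 (adjusted p = 0.0415), and 7.24% of all probes. For Plin4 the genotype effect was lower at ZT16 than at ZT8 by a log2 difference of -1.93 (SE 0.50, adjusted p = 0.0126), and for Plin5 by -1.15 (SE 0.34, adjusted p = 0.0287), where 8.78% of all probes were called. For G0s2 the effect at ZT12 minus that at ZT8 was -2.60 (SE 0.69, adjusted p = 0.0594). Between ZT12 and ZT8, limma called 0 members and 0.969% of all probes. Between ZT16 and ZT12 it also called 0 members, and 1.49% of all probes. At an unadjusted p below 0.05 there were 8 members for the first pair of times and 2 for the second. The share of all probes at that unadjusted threshold was not taken, so these 2 counts cannot be set against the shares called. The F calls of Plin4 and G0s2 were lost in 19 and 18 of 47 alternatives, while for ZT16 minus ZT8 the call of Plin4 was kept in all 48 and that of Plin5 was lost in 8 of 48. Those 8 were no filter on dim probes, only the groups compared, the slide as a fixed block, and leaving out knockout ZT16 replicate 1, knockout ZT8 replicate 2 (-0.96, adjusted p = 0.0718) or 5, or replicate 3 of the ZT16 or the ZT8 controls.

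These tests gave other calls without knockout ZT8 replicate 3. The F test then called 5 members, with 11.4% of all probes called: Mgll (adjusted p = 5.36e-05), Plin5 (8.45e-05), Plin4 (0.000543), Plin2 (0.00834) and G0s2 (0.00999), by limma in each case. The same 5 were called for ZT12 minus ZT8 (3.22% of all probes), with differences of the genotype effect of -2.95 for G0s2, -1.60 for Plin4, -1.53 for Mgll, -1.40 for Plin2 and -1.24 for Plin5. For ZT16 minus ZT8, 3 were called (12.8% of all probes): Plin4 at -2.40, Mgll at -1.55 and Plin5 at -1.53. Pnpla2, Pnpla3, Cidea, Cideb and Cidec passed neither version of the F test. Replicate 3 was singled out by its Mgll, Plin4 and Plin5 levels, so the smaller p-values of these genes without it are no independent support. Leaving out knockout ZT8 replicate 2 instead lost the F calls of Plin4 and G0s2 (limma adjusted p = 0.0912 and 0.0816).

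**Figure D4:**
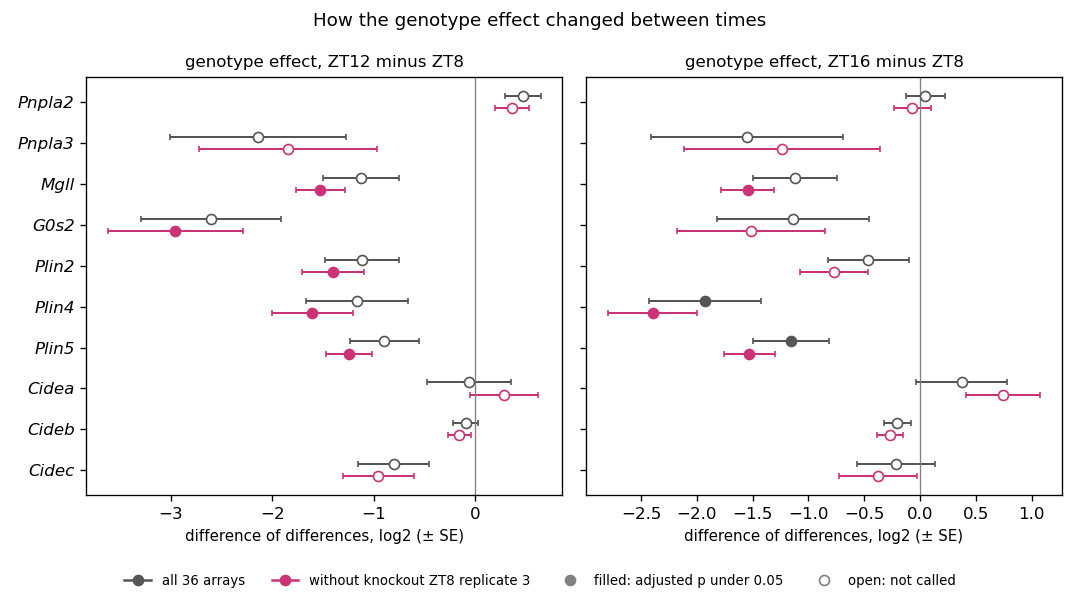
Change of the genotype effect (knockout minus control) from ZT8 to ZT12 and from ZT8 to ZT16, as a log2 difference of differences with its SE (x axis), for each member, from all 36 arrays (grey) and without knockout ZT8 replicate 3 (pink); filled points have an adjusted p under 0.05. Plin4 and Plin5 are filled in grey in the right panel at -1.93 and -1.15, and Mgll, G0s2, Plin2, Plin4 and Plin5 are filled in pink in the left panel.

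Other genes of the pathway were counted over whole lists, where 33.7%, 39.3% and 37.9% of all probes were called at ZT8, ZT12 and ZT16. Of 13 other lipases and cofactors, all tested, 1 was higher and 9 lower in knockouts at ZT8, and 0 higher and 10 lower at both ZT12 and ZT16, with median log2 differences of -0.36, -0.68 and -0.76. The carboxylesterases Ces1f, Ces1g and Ces1d hydrolyse triglyceride and esters in the hepatocyte's endoplasmic reticulum. Ces1f differed by -2.55, -2.75 and -3.06, Ces1g by -2.05, -2.02 and -2.53 and Ces1d by -0.87, -1.35 and -2.11 at ZT8, ZT12 and ZT16 (log2 differences, each called). These genes are close paralogs, and cross-hybridisation among their probes was not tested. Aadac, an esterase tied to lipoprotein secretion, differed by -1.59, -1.48 and -1.41, each called, and Abhd6, a monoglyceride lipase, by -0.26, -1.13 and -1.24, called at ZT12 and ZT16. Abhd5, the activator of Pnpla2, and Lipe, the hormone-sensitive lipase, were singled out after their values were seen, for their role next to Pnpla2. Abhd5 differed by -0.32, -0.62 and -0.75, each called (limma adjusted p = 0.00802, 4.55e-06 and 2.03e-07), and Lipe differed by -0.06, -0.07 and 0.06, none called.

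Of 12 other lipid droplet proteins, 3 were higher and 4 lower at ZT8, 2 and 4 at ZT12, and 2 and 5 at ZT16, with median log2 differences of -0.06, -0.20 and -0.13. Over all probes, 33.7%, 39.3% and 37.9% were called in either direction at these times. Fitm1, which binds triglyceride and helps droplets form, had the largest differences of the 5 named, -3.0, -3.56 and -3.17, each called. Ldah, a droplet-bound hydrolase, differed by -0.70, -1.01 and -1.01 and Bscl2 (seipin), which shapes nascent droplets, by -0.78, -0.88 and -0.81, each called. Ldaf1 (Tmem159 in the files), the partner of seipin, was instead higher, by 0.44, 0.90 and 1.05, each called. Plin3, a widely expressed perilipin, was higher at ZT12 and ZT16 and not called at ZT8 (log2 differences of 0.01, 0.27 and 0.70).

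Of 12 transcription regulators of these genes, 2 were higher and 2 lower at ZT8, and 3 higher and 5 lower at both ZT12 and ZT16. Over all probes, 33.7%, 39.3% and 37.9% were called in either direction, and the regulators' count at ZT8 was near that share. Ppargc1a, a coactivator of fasting programmes, was higher by 2.19, 2.20 and 1.89, and Srebf1, the insulin-responsive lipogenic factor known to act on Pnpla3, differed by -1.80, -1.48 and -1.12, each called. Creb3l3, a fasting-responsive factor of the endoplasmic reticulum, differed by -0.42, -0.97 and -0.89, each called. Ppara and Pparg, lipid-sensing nuclear receptors that are known to act on perilipin and CIDE genes, differed by -0.30, -0.93 and -0.89 and by -0.19, -1.18 and -0.58, both called at ZT12 and ZT16.

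Several members are abundant in fat cells, so adipocyte markers were read beside them. Of 8 markers, 3 (Adrb3, Fabp4 and Lep) were well above background on every array, Ucp1 on 0, Adipoq on 9, Cfd on 14, Plin1 on 16 and Retn on 31 of 36. Their summed linear signal, in multiples of the array's 75th percentile, ran from 3.63 to 6.61 in controls and from 5.16 to 12.4 in knockouts. The markers did not move together: of the 7 tested, 0 were called higher and 1 lower at ZT8, 1 and 2 at ZT12, and 2 and 1 at ZT16. Fabp4 was called higher at ZT12 and ZT16 (0.74 and 0.75) and Adrb3 at ZT16 (1.89), whereas Cfd was called lower at all 3 times (-2.27, -2.49 and -1.69) and Lep at ZT12 (-0.33). Summed hepatocyte markers ran from 2160 to 2780 in controls and from 1490 to 2130 in knockouts, with Ttr at a mean level of 9.26 in controls and 8.23 in knockouts and Alb at 10.42 and 10.04. Only Ttr and Alb were called lower at all 3 times. Apob was called lower (-0.29) and Hnf4a higher (0.31) at ZT12 alone, Apoa1 and Cps1 were not called, and the median log2 difference of the 6 was -0.10, -0.08 and -0.15. The 6 macrophage markers summed to 18.3 to 49.8 in controls and 25.1 to 85.5 in knockouts, and the 7 stellate cell markers to 39.5 to 89.1 and 44.4 to 107. At ZT12 the stellate sums did not overlap, at 39.5 to 67.6 in controls and 76.1 to 86.7 in knockouts. Of the stellate markers 1, 5 and 3 were called higher at ZT8, ZT12 and ZT16, of the 6 endothelial markers 1, 5 and 4, and of the macrophage markers 0, 3 and 2, with none of these 3 lists holding a lower call. Over all probes, 16.2%, 18.4% and 18.7% were called higher and 17.5%, 20.8% and 19.1% lower at these times. The sums of endothelial markers were 26.2 to 41.1 and 29.8 to 47.8, those of neutrophil markers 1.35 to 4.16 and 1.72 to 14.9, and those of bile duct markers 4.17 to 13.1 and 2.0 to 11.6, in controls and knockouts. The part of these shifts in the members' differences was not tested. In bulk liver, fewer cells of a type and less RNA per cell cannot be told apart.

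For the 7 members whose 6 group means spanned at least 1 on the log2 scale, the genes with the most similar pattern were sought among 15709 genes whose brightest probe cleared background well on all 36 arrays, by the root mean square difference between group means after centring. Pnpla2 was closest to Patz1 (0.069) and Tgfbr3 (0.072), Mgll to Fam35a (0.114) and Slco2b1 (0.157), and Plin5 to Hspa4l (0.168) and Fkbp4 (0.179), which are a heat shock protein and a chaperone-bound immunophilin. Plin2 was closest to A730009E18Rik (0.174) and Prkca (0.184), and Plin4 to Gdf9 (0.195) and Agpat9 (0.227), an enzyme of triglyceride synthesis. Pnpla3 was nearest to Col27a1 (0.577) and Thrsp (0.721), a lipogenic gene, and G0s2 to Acot11 (0.592) and Gm6484 (0.755). Their group means spanned the widest ranges, 5.42 for Pnpla3 and 4.79 for G0s2. The measure is not scaled to the range, so closeness cannot be compared between members of unlike range. These likenesses rest on 6 group means and are a description.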

How the data were processed

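Liver RNA of 36 mice was hybridised to 1-colour Agilent arrays with 56605 probes. The deposited intensity values are background-subtracted processed signals from Feature Extraction 10.10.1.1 with probe positions on mm9, per the file headers and the submitters' processing notes, and the deposited spot flags of other kinds mark spots well above background, saturated or outlying. The authors also deposited a log2 table of 32801 probes, which served only as an alternative. How it was made is not given in the sources used here. Its sorted values were the same on every array, as they are after quantile normalization.

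Each log2 intensity was set relative to the array's 75th percentile. Probes well above background on at least 6 arrays and with a value on every array were kept (34678). Group means were fitted with limma 3.58.1 in R 4.3.3, with wash batch (11 to 13 arrays each, all 6 groups in each) as a term, and p-values were adjusted by Benjamini-Hochberg over all of them. The script was tested on simulated data. Between 53.7% and 63.1% of spots were well above background. The number of mice, 6 per group, limits precision.

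The members and lists were chosen with earlier results of these data known. The genes named are the members, Insr, up to 5 of each pathway list with the smallest genotype p, and the 2 genes most similar to each member in group means. Markers of cell types were named from fixed lists, and Abhd5, Lipe and single marker genes were singled out after their values were seen. Alternatives covered normalization, background correction, the filter on dim probes, batch, slide and replicate terms, array weights and leaving out each array.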

Additional observations from a re-analysis of the deposited data

Results flagged for a closer look

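Of 60 sets of 6 mice (10 members in 6 groups), 4 held a mouse far from the others by Dixon's test, which chance passes in about 1 of 20 sets, or 3 of these 60. Knockout ZT8 replicate 3 accounted for 3 of them, at log2 levels of 1.82 for Mgll, -2.24 for Plin4 and 2.55 for Plin5. The fourth was Cideb in control ZT8 replicate 1, at 6.38.

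The genotype effect differed between ZT16 and ZT8 for Plin4 (log2 difference of effects -1.93) and Plin5 (-1.15) by limma's interaction contrast. The Plin4 call was kept in all 48 alternatives, with an adjusted p of up to 0.0489. The Plin5 call was lost in 8 of 48, with an adjusted p of up to 0.0718. The genotype effect differed among the 3 times by limma's F test for Plin4 (adjusted p = 0.0373) and G0s2 (adjusted p = 0.0415). These F calls were lost in 19 and 18 of 47 alternatives, with an adjusted p of up to 0.122 and 0.13.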

How the results depend on the processing

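No member's called difference changed sign under the alternatives run. Counts of members called that moved by over 1.5 times are given here against the count reported, and the cause was not tested. The share of all probes called can move with the setting too: for the F test it was 7.24% with all arrays and 11.4% without knockout ZT8 replicate 3. Of the moved counts below, only those without that library have such a share, so a moved count cannot be read as particular to the members. With only the groups compared in the fit, the count was 3 against 5 for knockout versus control at ZT8, 4 against 2 for ZT12 minus ZT8 in controls, 0 against 2 for the same times in knockouts, 1 against 0 for ZT16 minus ZT12 in controls, 1 against 3 for ZT16 minus ZT8 in knockouts and 1 against 2 for the genotype effect at ZT16 minus ZT8. Array weights gave 4 for ZT12 minus ZT8 in knockouts, 2 for ZT16 minus ZT12 in controls, 6 for ZT16 minus ZT8 in knockouts, 4 for the genotype effect at ZT12 minus ZT8 and 6 for the F test. With the slide as a fixed block the counts were 1 for ZT12 minus ZT8 in controls, 1 for the genotype effect at ZT16 minus ZT8 and 0 for the F test. Without a filter on dim probes the genotype effect at ZT16 minus ZT8 had 1 and the F test 0. The replicate block gave 1 for the F test and moved no other count that far. The numbers did not pair the mice: of 18 same-numbered pairs, 4 had a correlation of deviations over 0.1 (range -0.16 to 0.17), and 5 correlated best with their own number. For ZT16 minus ZT12 in controls, 1 member was called with the authors' deposited table, no wash batch term, normexp, quantile normalization or only probes well above background on all 36 arrays. The genotype effect at ZT12 minus ZT8 had 1 without the wash batch term and 1 with that last filter. Leaving out 1 array at a time gave 1 to 3 for ZT12 minus ZT8 in controls, 1 to 6 for ZT12 minus ZT8 in knockouts, 0 to 2 for ZT16 minus ZT12 in controls, 3 to 6 for ZT16 minus ZT8 in knockouts, 0 to 5 for the genotype effect at ZT12 minus ZT8, 1 to 3 for the genotype effect at ZT16 minus ZT8 and 0 to 5 for the F test. Normexp lowered the share of higher probes among those called at ZT12 from 46.9% to 34.6%. The second Pnpla3 probe was close to background in knockouts, which limits its differences there.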
